A study of Mus musculus with 2 samples.

Results

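The 10 T-box genes of the Tbx1 subfamily (Tbx1, Tbx10, Tbx15, Tbx18, Tbx20 and Tbx22) and the Tbx2 subfamily (Tbx2, Tbx3, Tbx4 and Tbx5) were taken by name from a map of Ring1b along the mouse genome. They are 10 of 21883 protein-coding genes of the reference gene table. A member was called bound when the authors' gene table assigned it at least 1 Ring1b interval, which they did up to 10 kb from a gene, and unbound when it was not listed. Of the 3993 genes that this table lists, 6 were members. Ring1b is the ubiquitin ligase subunit of Polycomb repressive complex 1, which places ubiquitin on histone H2A at genes of embryonic patterning and is known for keeping many of them silent. Its sites were mapped by ChIP-seq, the sequencing of DNA that an antibody to the protein pulls down, in incisor pulp cells of CD1 mice, an outbred stock, at postnatal day 5. The mice had received 1 dose of 3.3 µg per g body weight of the thymidine analogue EdU 24 h earlier, and only EdU-positive cells were sorted and used, so every cell had made DNA in that time. Besides this Ring1b ChIP sample, the labels list 1 input DNA sample from mice of the same strain, age and treatment. They name no mutation. The tables used here hold no input values.

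T-box factors bind DNA through a shared domain, the T-box, and switch genes on or off in the embryo. In the Tbx1 subfamily, Tbx1 acts in the pharyngeal arches, in heart development and in the dental epithelium, Tbx15 in limb and craniofacial skeleton, Tbx18 in the mesenchyme of ureter, epicardium and somite, and Tbx20 in the heart. Tbx22 acts in the palate, and a change at Tbx10 gives cleft lip and palate in mice. In the Tbx2 subfamily, Tbx2 and Tbx3 are mainly repressors, with roles in the heart, limb and mammary gland, Tbx4 acts in the hindlimb and lung bud, and Tbx5 in the forelimb and heart.

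The file headers name 2 sets of ChIP intervals as replicates. Since the labels give 1 ChIP sample, these sets are called run 1 and run 2 and counted as 1 sample, and no test was made. The sources used here give neither the animals nor the cells behind each run, nor the sequencing depth. Run 1 held 465 intervals and run 2 held 3938, and 4316 merged regions were made from them. Heights are the authors' signal values at the summit of an interval, whole numbers whose scaling is not given, and serve only to rank intervals. In a pool of cells, Ring1b at a gene in few cells and a low amount in all of them cannot be told apart. No RNA was measured, so the labelled tissue could not be checked by expression. Of genes that mark cell types, intervals were assigned to 5 of 6 for dental mesenchyme, 0 of 3 for odontoblasts, 1 of 4 for dental epithelium, 0 of 3 for endothelium and 1 of 2 for immune cells, which says nothing of their expression. The share over all protein-coding genes was 15.8%, and the lists are short. Coordinates are in mm10.

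Within the Tbx1 subfamily, Tbx15 and Tbx18 carried the highest intervals and the most bases under Ring1b of the 10 genes, and the other 4 members had no interval. All 4 members of the Tbx2 subfamily were bound, with heights of 5 to 10. An interval was assigned to 6 of the 10 members, 2 of 6 in the Tbx1 subfamily and 4 of 4 in the Tbx2 subfamily, against 15.8% of all protein-coding genes. By the highest interval of each gene, the 6 bound members had heights of 5 to 21 with a median of 8. The median height over all 3461 bound protein-coding genes was 4. The bound members had 2 to 9 intervals each, and the median bound protein-coding gene had 1. With run 1 alone, which called 2 members, both median heights were 4.

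**Figure D1:**
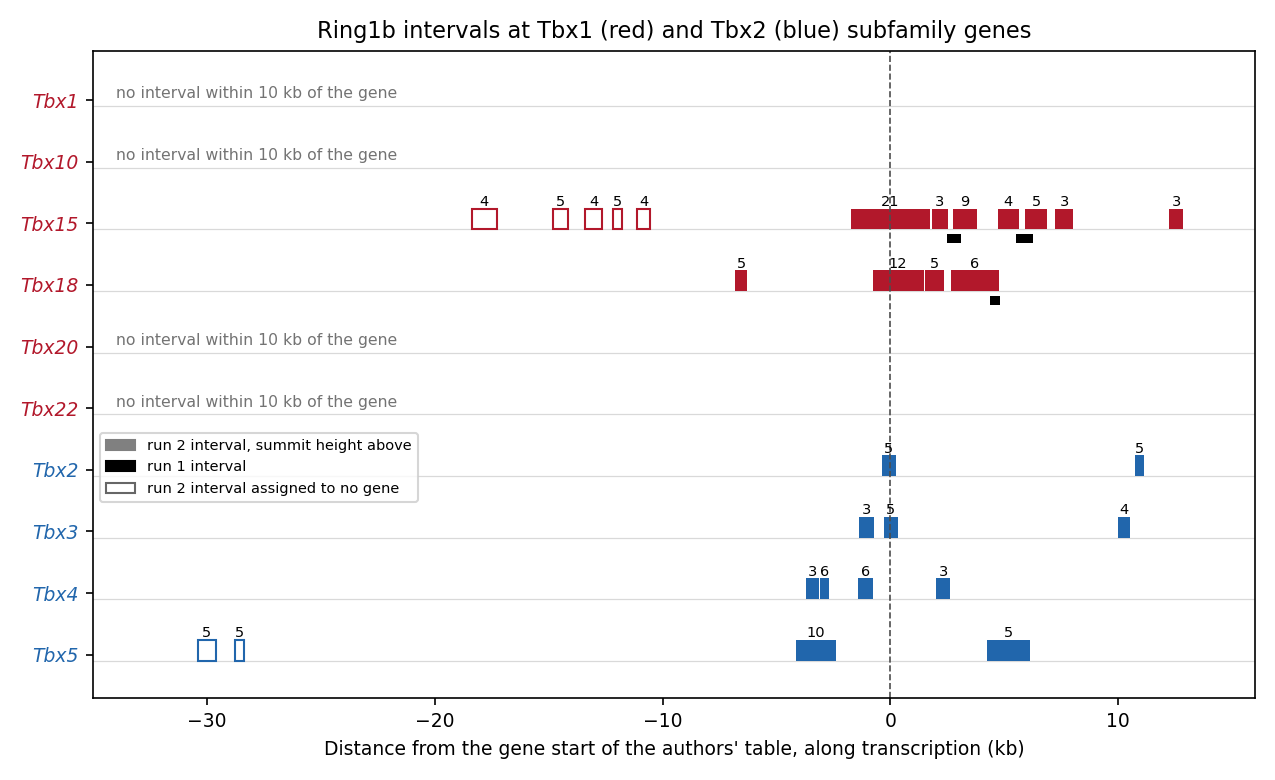
Ring1b intervals at the 10 genes, one row per gene, against the distance in kb from the gene start in the authors' table, along the direction of transcription. Filled bars are run 2 intervals with their summit height above, black bars below the line are run 1 intervals, and open bars are run 2 intervals that the table assigns to no gene. Tbx15 and Tbx18 hold dense groups of intervals from the start into the gene, while Tbx1, Tbx10, Tbx20 and Tbx22 hold none.

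Promoter sequences are shown for the bound Tbx18, for the unbound Tbx20, Tbx1 and Tbx22, and for Gm5563, which is not a T-box gene. Sequences from RefSeq (GRCm38.p6, the build that mm10 names) were matched for 6 of the 10 members, Tbx1, Tbx10, Tbx18, Tbx20, Tbx22 and Tbx4. Each line gives the 250 bases before a transcription start, 5′ to 3′ on the strand of the gene, with every CpG dinucleotide in capitals. The Tbx18 promoter (chr9:87731261-87731510, minus strand) lies wholly under the highest Tbx18 interval. The second promoter of Gm5563, a long noncoding RNA gene on the opposite strand to Tbx5 (chr5:119831987-119832236, minus strand), lies wholly under the highest Tbx5 interval. The promoters of Tbx20 (chr9:24774304-24774553, minus strand), of the inner start of Tbx1 (chr16:18588900-18589149, minus strand) and of the first start of Tbx22 (chrX:107667714-107667963, plus strand) overlapped no interval.
Tbx18: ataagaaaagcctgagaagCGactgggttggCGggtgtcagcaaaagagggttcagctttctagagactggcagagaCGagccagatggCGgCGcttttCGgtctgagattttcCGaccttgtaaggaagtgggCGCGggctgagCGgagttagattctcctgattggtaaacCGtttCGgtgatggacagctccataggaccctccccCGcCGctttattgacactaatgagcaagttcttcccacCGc
Gm5563: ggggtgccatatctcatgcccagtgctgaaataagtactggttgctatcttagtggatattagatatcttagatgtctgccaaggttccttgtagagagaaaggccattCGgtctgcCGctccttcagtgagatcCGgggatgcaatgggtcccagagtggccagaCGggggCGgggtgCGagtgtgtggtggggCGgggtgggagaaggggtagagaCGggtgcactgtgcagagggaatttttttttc
Tbx20: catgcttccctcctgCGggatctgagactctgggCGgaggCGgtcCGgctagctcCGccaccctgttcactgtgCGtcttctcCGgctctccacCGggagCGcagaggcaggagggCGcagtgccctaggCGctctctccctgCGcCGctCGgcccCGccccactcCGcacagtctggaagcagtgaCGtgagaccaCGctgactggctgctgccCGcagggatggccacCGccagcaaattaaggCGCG
Tbx1: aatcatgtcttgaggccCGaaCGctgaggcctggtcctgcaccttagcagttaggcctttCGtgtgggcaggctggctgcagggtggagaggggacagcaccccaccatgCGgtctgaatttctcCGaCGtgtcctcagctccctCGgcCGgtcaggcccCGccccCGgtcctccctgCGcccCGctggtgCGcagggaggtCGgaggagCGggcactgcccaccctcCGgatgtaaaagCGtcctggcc
Tbx22: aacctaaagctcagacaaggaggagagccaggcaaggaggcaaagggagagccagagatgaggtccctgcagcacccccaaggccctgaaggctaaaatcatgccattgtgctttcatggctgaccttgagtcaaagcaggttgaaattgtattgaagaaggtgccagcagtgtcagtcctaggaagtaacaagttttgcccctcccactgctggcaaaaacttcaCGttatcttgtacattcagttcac

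Tbx15 was the member with most Ring1b. Its gene (GeneID 21384, chr3:99253760-99354260, plus strand) was assigned 9 intervals, 7 of run 2 and 2 of run 1. Such a count over both runs was rare, as 0.123% of protein-coding genes had 9 or more. The 2 intervals of run 1 overlap run 2 intervals, and the 9 form 5 merged regions. The highest interval, chr3:99252042-99255490, was 3449 bp wide, had its summit exactly at the gene start and reached 21. Of the bound protein-coding genes, 13 (0.376%) reached 21 or more, and 0.954% of all 4403 intervals were as wide. From there 6 more run 2 intervals followed inside the gene, with heights, in order of distance, of 3, 9, 4, 5, 3 and 3, the last with its summit 12368 bp from the start. All 6 were lower than the interval at the start, and the 9 among them had its summit at 3216 bp. The intervals together covered 8960 bp in a stretch of 14583 bp. Among the 3993 listed genes Tbx15 ranked 16 by height, 31 by number of intervals and 66 by bases covered, ties sharing the best rank.

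Ring1b at this locus went on upstream of what the authors' table counts. A further 5 run 2 intervals, of height 4 to 5 and 414 to 1072 bp wide, lay upstream and were assigned to no gene. In the reference table Tbx15 begins 13.4 kb further upstream, at 99240348, and 3 of the 5 lie inside that longer gene. One of them, chr3:99240373-99241084, lies 24 bp from its first base. With the reference gene, 14 intervals lay within 10 kb of Tbx15 in place of 9.

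Tbx18, a close relative of Tbx15, also had its highest interval at the start in the authors' table and lower ones inside the gene. Unlike for Tbx15, the reference table gives Tbx18 the same start. The gene (GeneID 76365, chr9:87702800-87731260, minus strand) was assigned 5 intervals, 4 of run 2 and 1 of run 1, and 0.475% of protein-coding genes had 5 or more. The highest, chr9:87729789-87732042, spanned the start, was 2254 bp wide and reached 12, a height that 2.48% of bound protein-coding genes reached or passed. Its summit lay 892 bp inside the gene, whereas that of Tbx15 lay at the start. Inside the gene, run 2 intervals of height 5 and 6 had their summits 1932 and 3100 bp from the start, the second of them 2147 bp wide. The remaining one, of height 5, lay upstream with its summit at -6500 bp. The intervals covered 5763 bp in all, against 693 bp for the median bound protein-coding gene.

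The 4 unbound members of the Tbx1 subfamily lay at different distances from the nearest Ring1b region. For Tbx1 (GeneID 21380, chr16:18580979-18590671) it was 30.6 kb away, an interval of height 3 assigned to Gp1bb and Sept5, chr16:18621234-18621837. For Tbx10 (GeneID 109575, chr19:3992752-3999512) the gap was 192.6 kb. Tbx20 (GeneID 57246, chr9:24720812-24774303) had a gap of 377 kb, and Tbx22 (GeneID 245572, chrX:107667964-107688980) one of 1098 kb. None of the 4 was thus close to the 10 kb limit of the authors' assignment. The most distant interval that still counted for a member was the one upstream of Tbx18, 6286 bp from the gene. A region within 100 kb was found for 7 of the 10 members, the 6 bound ones and Tbx1, against 40.7% of protein-coding genes. An interval shows where the signal passed the authors' caller, and at an unknown depth a missing one does not show that Ring1b was absent.

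In the Tbx2 subfamily, Tbx5 stood highest. The gene (GeneID 21388, chr5:119834663-119885218, plus strand) had 2 intervals, both of run 2. The first, chr5:119830539-119832277, was 1739 bp wide, reached 10, and had its summit at -3175 bp from the start in the authors' table. The second was 1910 bp wide, reached 5, and lay in the gene with its summit at 5513 bp. Both were also assigned to Gm5563, and the sequence printed for that gene lies in the first. Of all intervals, 4.61% were 1739 bp or wider, so both Tbx5 intervals were among the wide ones. The reference table begins Tbx5 38.1 kb further upstream. Inside that longer gene 2 more intervals, both of height 5 and assigned to no gene, made a total of 4.

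Tbx4, Tbx2 and Tbx3 had lower and narrower intervals than Tbx5 at its highest. Tbx4 (GeneID 21387, chr11:85890063-85916097, plus strand) had 4, with heights of 3, 6, 6 and 3 in order along the gene and widths of 396 to 666 bp. The first 3 lay upstream in the authors' table. The first of these, chr11:85886362-85886920, contains the first base of Tbx4 in the reference table, which begins the gene 3.7 kb further upstream, so by that table all 4 lie in the gene. The RefSeq promoter matched for Tbx4, chr11:85896515-85896764, is another start further inside the gene and overlapped no interval.

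Tbx2 (GeneID 21385, chr11:85832615-85841948, plus strand) had 2 intervals of height 5. One, chr11:85832247-85832847, lay across the start and was also assigned to the neighbouring genes Bcas3 and 2610027K06Rik. The other lay 1426 bp beyond the 3′ end of the gene. Tbx3 (GeneID 21386, chr5:119670669-119684601, plus strand) had 3, of height 3 with the summit at -1261 bp, of 5 at the start and of 4 inside the gene, the last also assigned to Gm16065. These heights were common ones: 49.9% of bound protein-coding genes reached 5 or more and 26.9% reached 6 or more. Tbx2 and Tbx4 are neighbours on chromosome 11, and Tbx3 and Tbx5 on chromosome 5. No interval was assigned to both genes of a pair. None of these widths could be, as the genes lie too far apart for the 10 kb limit.

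**Figure D2:**
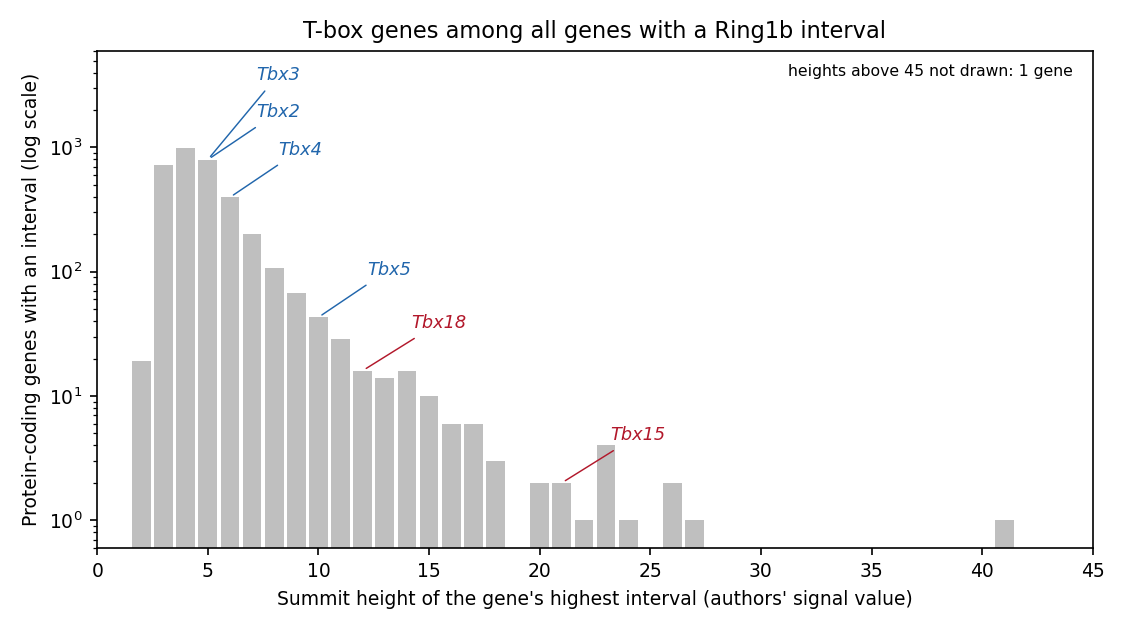
Height of the highest interval of each bound protein-coding gene (grey bars, number of genes on a log scale), with the 6 bound members marked, Tbx1 subfamily in red and Tbx2 subfamily in blue. Tbx2, Tbx3 and Tbx4 lie at 5 and 6, in the bulk of the genes, whereas Tbx5, Tbx18 and Tbx15 lie at 10, 12 and 21, in the upper tail.

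By their highest interval, both bound members of the Tbx1 subfamily, at 21 and 12, stood above the 4 of the Tbx2 subfamily, at 10, 6, 5 and 5. The highest was taken from 9 and 5 intervals in the Tbx1 subfamily and from 2 to 4 in the Tbx2 subfamily. Over single intervals of run 2, the median height was 5 in each subfamily, against 4 over all run 2 intervals. An interval of height 5 or more was found at 6 of the 10 members, against 7.90% of protein-coding genes, and one of 6 or more at 4 of the 10, against 4.25%. At 10 or more it was 3 of the 10, both bound members of the Tbx1 subfamily and Tbx5, against 0.722%. The widest interval of a bound member had a median width of 1291 bp, against 677 bp over bound protein-coding genes. Tbx2, Tbx3 and Tbx4, with widest intervals of 601, 672 and 666 bp, lay close to that background, and Tbx5, Tbx18 and Tbx15 above it. A gene with more intervals has more chances of a wide one, and the median bound protein-coding gene had 1 interval. Over all 25 member intervals the median width was 672 bp, against 670 bp over all intervals. Within run 2 it was 893 bp in the Tbx1 subfamily and 611 bp in the Tbx2 subfamily, with 11 intervals each. Over all run 2 intervals it was 682 bp.

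Distances to the start depended on the gene model. An interval came within 1 kb of the start in the authors' table in 5 of the 10 members, against 9.72% of protein-coding genes, and within 2.5 kb in 6 of 10, against 10.4%. Tbx5 was the bound member that lacked one within 1 kb. From the start of Tbx5 in the reference table, its assigned intervals lay 34024 and 42376 bp away, and the nearest of the unassigned ones 7736 bp away. The placement around the start differed between the subfamilies as counted. In the Tbx1 subfamily 13 of 14 intervals had their summit in the gene. In the Tbx2 subfamily 5 of 11 did, with 5 upstream and 1 downstream. Over all pairs of a protein-coding gene and an interval, 48.1% were in the gene. Intervals of a gene are not independent, and the upstream ones of Tbx4 and Tbx5 lie inside the longer reference genes. Of the 14 in the Tbx1 subfamily, 9 are of Tbx15, and 3 are run 1 intervals that overlap run 2 intervals. The 5 unassigned intervals upstream of the Tbx15 start in the authors' table are not counted.

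The runs differed in what they called. Run 2 called 6 of the 10 members, against 14.9% of protein-coding genes. Run 1 called 2 of the 10, Tbx15 and Tbx18, and none of the 4 members of the Tbx2 subfamily, against 1.73%. An interval in both runs was thus found at 2 of the 10 members, against 0.763%. The 3 run 1 intervals, each of height 4, lay inside Tbx15 (2) and Tbx18 (1), not at their starts, and run 1 called nothing at the summits of 21 and 12. All 3 shared at least 1 bp with an interval of run 2 (exact Clopper-Pearson 95% interval 29.2 to 100%, counting error only). Over the whole of run 1 this held for 77 of 465 intervals (16.6%, 13.3 to 20.3%). The 3 are not independent, as they lie in 2 genes that hold 7 and 4 run 2 intervals.

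The authors also give the mean height of each run over the merged regions of a gene, whether or not that run called an interval. In run 1 this was 3.25 at Tbx15, 2.33 at Tbx18, 2 at Tbx5, 1.5 at Tbx4, and 1 at Tbx2 and Tbx3. In run 2 it was 8.2 at Tbx15, 7 at Tbx18, 7.5 at Tbx5, 4.5 at Tbx4, 5 at Tbx2 and 4 at Tbx3. By these means Tbx15, Tbx18 and Tbx5 stood highest in each run. The median over bound protein-coding genes was 1 in run 1 and 4 in run 2. Single heights are whole numbers, so 3.25 over the 5 regions of Tbx15 can only be a mean over 4 of them, and regions without run 1 signal seem to have been left out. Over all regions of a gene the run 1 means could be lower, and the order of the members could differ. The 4 bound members without a run 1 interval, all of the Tbx2 subfamily, had a run 1 height above 0, as did 47.3% of the 3083 bound protein-coding genes without a run 1 interval. The 2 are not matched for regions: these members had 2 to 4 merged regions each, while the median bound protein-coding gene had 1 interval. More regions give more chances of a run 1 height above 0.

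**Figure D3:**
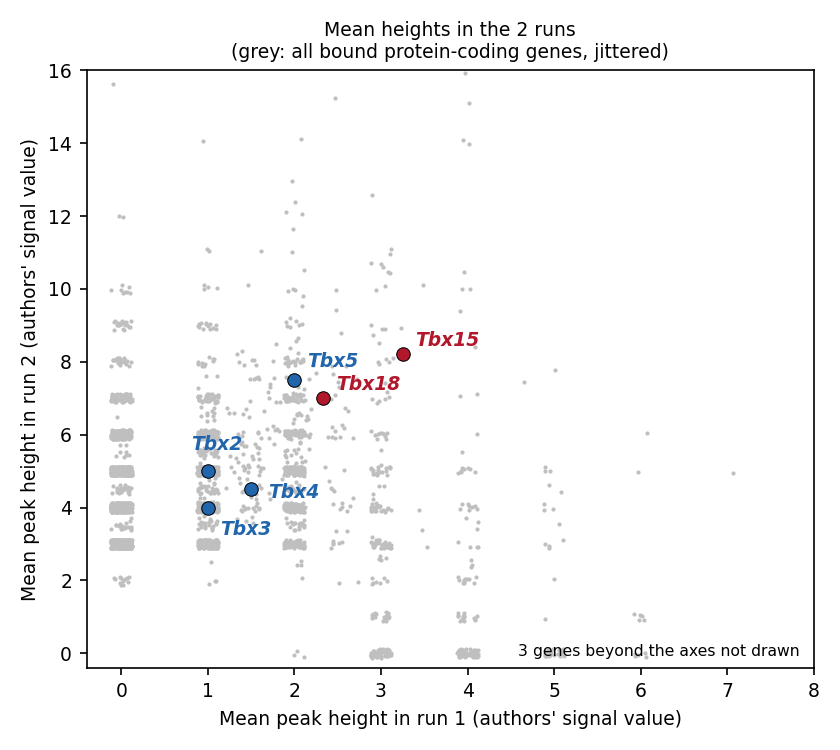
Mean peak height in run 1 (horizontal) and run 2 (vertical) for the 6 bound members, Tbx1 subfamily in red and Tbx2 subfamily in blue, over all bound protein-coding genes in grey, jittered. Tbx15 (3.25 and 8.2), Tbx18 (2.33 and 7) and Tbx5 (2 and 7.5) lie above Tbx4, Tbx2 and Tbx3 in both runs.

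CpG content differed widely among the unbound members. CpG dinucleotides, on which Polycomb complexes are known to gather in mammals where they are dense and unmethylated, numbered 15 in the 250 bases before the start of Tbx18. The unbound Tbx20 had 22, more than any other member promoter matched, and the unbound Tbx1 had 17 at its inner start and 10 at its outer one. Tbx10 had 3, and the 3 starts of Tbx22 had 1, 2 and 1. The Tbx4 promoter that no interval overlapped had 6, and the Gm5563 promoter under the interval of height 10 had 8. The median was 18 over promoters of bound protein-coding genes and 8 over those of unbound ones. The promoters of Tbx10 and Tbx22 were therefore poorer in CpG than the usual unbound gene, while that of Tbx20 was richer than the usual bound one. The letters AGGTGTGA, a half-site to which T-box factors bind, were searched on both strands. None of the 9 member promoters matched held them, and 1.12% of all 32851 promoters did.

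**Figure D4:**
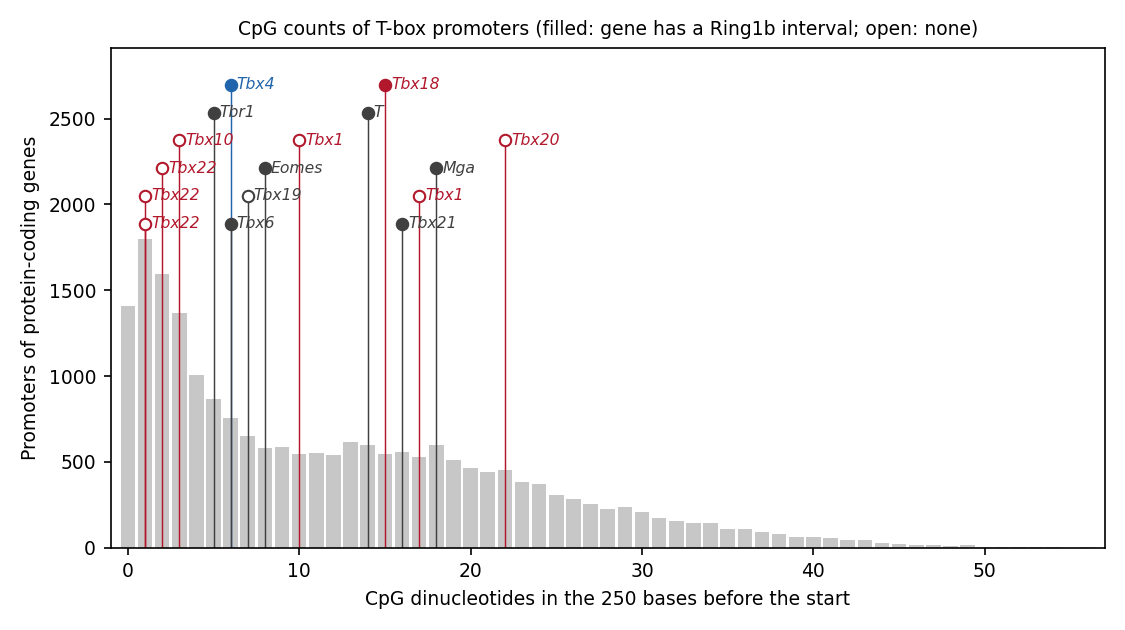
Number of CpG dinucleotides in the 250 bases before the start for the T-box promoters matched (points, filled where the gene has a Ring1b interval, open where it has none; red Tbx1 subfamily, blue Tbx2 subfamily, black other T-box genes), over all promoters of protein-coding genes (grey bars). Genes with several starts have several points. Tbx20, with 22, has the highest count of the T-box promoters and no interval, and Tbx22, with 1 or 2, the lowest.

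The remaining T-box genes were bound in 6 of 7 cases, with heights of 3 to 15 and all from run 2. Tbr1, a factor of cortical neurons, reached 15 and Eomes, of trophoblast and mesendoderm, reached 8. T (Brachyury, the notochord and mesoderm factor), Tbx21 (of T helper cells) and Mga (a partner of Max that also belongs to a variant Polycomb complex) reached 5. Tbx6, of paraxial mesoderm, had an interval of height 3 that lay 6380 bp from the gene, and Tbx19, of pituitary cells, had none. Over the whole family of 17, 12 were bound, against 15.8% of protein-coding genes.

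Factors known to act with or upstream of T-box genes were set beside genes reported as their targets. Of 12 partners and upstream factors 10 were bound, with a median height of 9, and of 14 reported targets 3 had one, with a median of 6, against 15.8% of protein-coding genes. The difference was not tested, since the genes come from 1 sample. Gata6 reached 17, Isl1 15 and Foxc1 12, all regulators of heart and arch tissues. Nkx2-5, a cardiac homeobox factor, reached 8 with 11 intervals. Foxc2 reached 11, Foxa2 10, Gata4 8, Eya1 7, Hand2 6, and Ripply2, which binds T-box proteins, 3. Ripply1 and Ripply3 had none. Among targets, Cdkn2a, a cell cycle inhibitor that Tbx2 and Tbx3 repress, reached 7 with 9 intervals, its neighbour Cdkn2b 6 and Runx2 4. The Runx2 interval nearest to its start in the authors' table lay 78648 bp away. Fgf8, Fgf10, Bmp2, Bmp4, Nppa, Gja1, Gja5, Cdh1, Cdkn1a, Dll1 and Wnt4 had none.

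**Figure D5:**
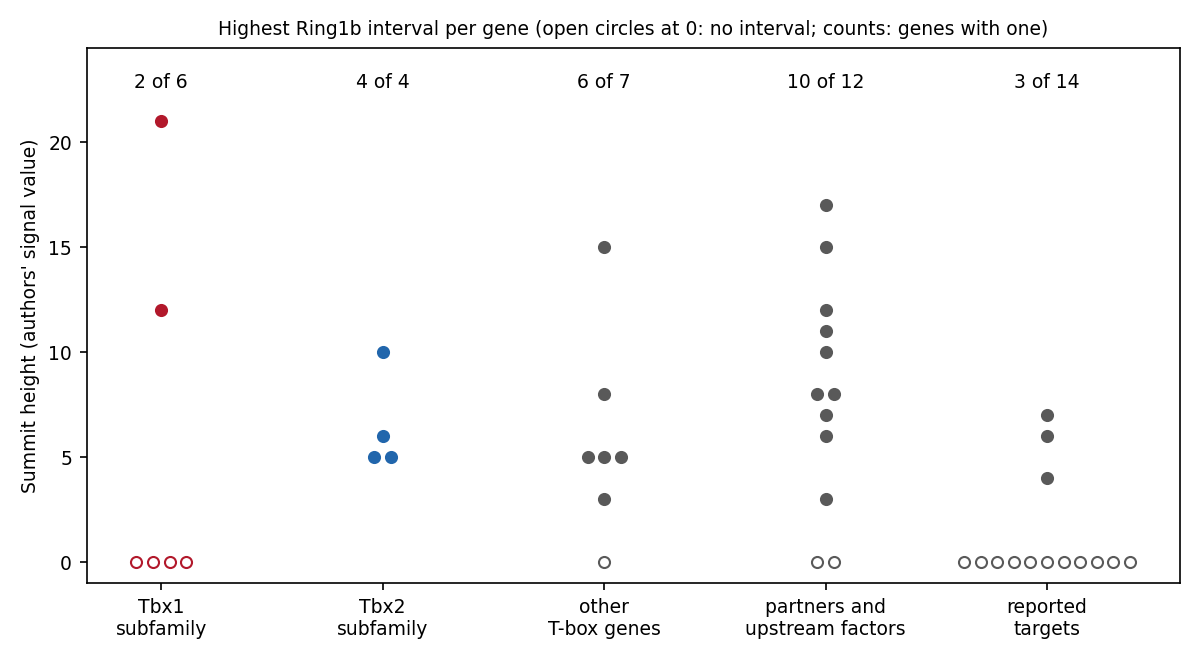
Height of the highest interval of each gene (points), by list; open circles at 0 are genes with no interval, and the counts above give the genes with one. Heights reach 21 in the Tbx1 subfamily, 10 in the Tbx2 subfamily, 15 in the other T-box genes, 17 in partners and upstream factors, and 7 in the reported targets.

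The genes most like Tbx15 in Ring1b pattern were sought among all listed genes by the summed difference of ranks in height, number of intervals and bases covered, within this 1 sample. Hoxd13, a posterior homeobox gene, was nearest, with a height of 23, 9 intervals and 14166 bp. Vax2, a homeobox gene of the ventral eye, and its opposite-strand transcript Vax2os2 came next with equal values, as they share their intervals, at a height of 18, 8 intervals and 7028 bp. For Tbx15 the values were 21, 9 and 8960 bp.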

How the data were processed

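Ring1b ChIP-seq intervals came from sorted EdU-positive incisor pulp cells, with 1 ChIP sample and 1 input sample in the labels. The submitters' processing notes name BWA, SICER and mm10, with no version or setting. The deposited gene table gives, as signal values, the height of each gene's highest interval and the mean height in each run. The score that the deposited track file gives at a summit is that height. The sources used here do not say how these heights were scaled, which could change any comparison of runs. A file of web addresses was left out.

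Intervals, distances, overlaps and CpG counts were computed in Python 3.11.15 (pandas 2.3.3, numpy 2.4.6, scipy 1.17.1), and figures drawn with matplotlib 3.10.9. Reference genes and promoters were those of GRCm38.p6. A gene was counted at its start where an interval lay within 1, 2.5 or 5 kb of it. The interval and CpG functions were tested on simulated data. Members, lists and alternatives were chosen with earlier results of these data known. Named genes were all members, genes sharing their intervals, the other T-box genes, 2 context lists of 12 and 14 genes, and the 3 genes most like the highest member. A few genes of the context lists and marker lists are not reported here and are left out of the counts. Gp1bb and Sept5 were named after their values were seen. With 1 sample, no test was made.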

Additional observations from a re-analysis of the deposited data

How the results depend on the processing

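No paired analysis was possible because there was 1 ChIP sample. Counts followed the height threshold and the run. Bound members numbered 3 at heights of 10 or more. Those of the Tbx2 subfamily numbered 2 at 6 or more and 1 at 10 or more. With either run left out, bound members numbered 2 to 6 in all and 0 to 4 in the Tbx2 subfamily, the lower count being that of run 1 alone, while the Tbx1 subfamily had 2 under every alternative run here. Their median height was 8 with the interval nearest to the start, 11 with the pairs Tbx2 with Tbx4 and Tbx3 with Tbx5 as 1 locus each, and 4 to 8 with either run left out. With run 1 alone it was 4, the same as the median of 4 over bound protein-coding genes, and with run 2 alone it was 8, against 5. The background share was 7.90, 4.25 and 0.722% at heights of 5, 6 and 10 or more, 9.72, 10.4 and 11.2% with starts within 1, 2.5 and 5 kb, 16.6% on autosomes, 16.6% with reference genes and 1.73 to 14.9% with either run left out. Of the 3 run 1 intervals at members, 2 overlapped a run 2 interval by at least 50% of the shorter one. Over all of run 1 it was 65 of 465 (14%, exact 95% interval 11.0 to 17.5%). The exact 95% interval for 2 of 3 was 9.43 to 99.2%, counting error only. The 3 lie in 2 genes and are not independent, so the 2 shares were not tested against each other. Fewer intervals pass a stricter threshold or lie in 1 run by construction; no other cause was tested. The reference gene alternative was added after seeing the data. Depth is unknown, so a missing interval is not shown to be an absence of Ring1b.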
